A study of Mus musculus with 26 samples.

Results

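Aminoacyl tRNA synthetases are the enzymes that load each amino acid onto its tRNA. The genes were taken by name from a table of 13641 genes: all names made of 1 letter and "ars", with or without a closing 2, together with Farsa, Farsb and Eprs. That rule found 37 genes, of which 20 have no closing 2 and are called cytosolic here, and 17 end in 2 and are called mitochondrial. RNA came from islets picked by hand out of the pancreas of C57BL/6J mice, with no transgene or treatment named in the labels, and ribosomal RNA was removed before sequencing. Neonatal islets at postnatal day 5 had been separated into small islets (9 libraries) and large islets (11 libraries), and adult islets were from mice of 2.5 months (6 libraries). The labels place the libraries in 3 batches: batch 1 holds neonatal islets alone (8 libraries), batch 2 holds 7 neonatal and 4 adult libraries, and batch 3 holds 5 neonatal and 2 adult libraries.

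In animal cells the cytosolic enzymes serve translation on cytosolic ribosomes, and a second nuclear-encoded set, imported into mitochondria, serves the proteins encoded by mitochondrial DNA. Gars (glycyl) and Kars (lysyl) make the enzyme of both compartments from 1 gene, and mitochondria make glutaminyl-tRNA by amidation rather than with an enzyme of their own. Eprs carries the glutamyl and prolyl activities in 1 protein, and Farsa and Farsb are the subunits of the phenylalanyl enzyme. Several cytosolic enzymes sit in a multi-synthetase complex on the scaffold proteins Aimp1, Aimp2 and Eef1e1, and many cytosolic synthetase genes are known targets of ATF4, the transcription factor induced by amino acid shortage and endoplasmic reticulum stress. Beta cells, the main cell type of islets, make and secrete large amounts of insulin.

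All values are FPKM, fragments per kilobase of transcript scaled to library size, which allows levels to be compared between genes. Recovered fragment totals ran from 15529844 to 31984084 per library, with 25194006 to 27404210 in the adult libraries of batch 2 and 17337348 and 18458928 in those of batch 3. All 37 genes passed the filter on low values (an FPKM of 1 or higher in 6 or more of the 26 libraries). The fewest fragments behind any value of these genes was 61, for Pars2. The 6 beta cell genes summed to between 89405 and 179879 FPKM in every library, and no gene of the lymphocyte list was in the table. The labels do not say that libraries of 1 group came from different animals, so the p-values measure the spread between these libraries, which may be partly technical. In whole islets, fewer cells of a type and less RNA per cell cannot be told apart.

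The cytosolic enzymes were the more abundant class in all groups. In the 9 small-islet libraries the median of the 20 cytosolic genes had a lowest value of 21.6, a median of 23.6 and a highest value of 24.97 FPKM, and in the 11 large-islet libraries these were 21.2, 23.1 and 26.2 FPKM. The 4 adult libraries of batch 2 ran from 32.6 to 36.9 FPKM, and the 2 of batch 3 stood at 26.05 and 27.9 FPKM. For the 17 mitochondrial genes the median lay between 3.18 and 5.13 FPKM in small, 3.51 and 4.71 in large, 3.30 and 4.202 in adult batch 2 and 4.68 and 4.68 FPKM in adult batch 3. The cytosolic class median was thus higher in all 4 adult batch 2 libraries than in any neonatal library, while the mitochondrial class medians overlapped.

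On the log2(FPKM + 1) scale the cytosolic median exceeded the mitochondrial one by 2.30 ± 0.20 (SD, n = 9) in small islets and by 2.27 ± 0.11 (SD, n = 11) in large islets. The excess was 2.96 ± 0.19 (SD, n = 4) in adult batch 2 and 2.30 ± 0.07 (SD, n = 2) in adult batch 3. Against the neonatal libraries of their own batch, the adults of batch 2 were 0.59 higher in this excess and those of batch 3 were 0.02 lower (adult minus neonatal, -0.02). The wider gap between the classes was therefore seen in 1 of the 2 adult batches. These class values carry no test, since the genes of a class are not replicates.

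**Figure D1:**
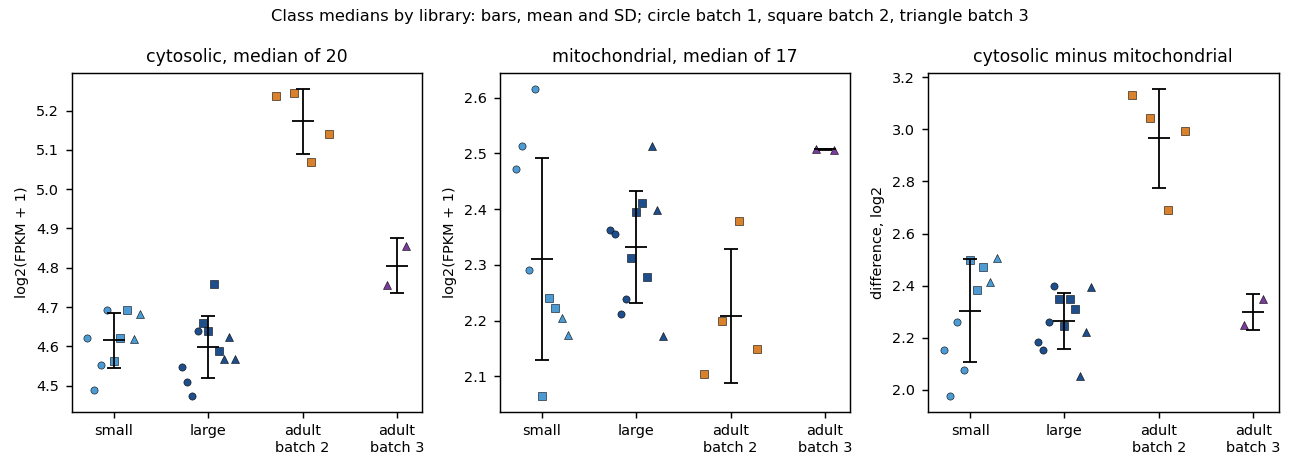
Median log2(FPKM + 1) of the 20 cytosolic and 17 mitochondrial synthetase genes and their difference, by library and group; points are libraries (circle batch 1, square batch 2, triangle batch 3), bars are mean and SD. The 4 adult batch 2 libraries lie above all 20 neonatal libraries in the cytosolic median and in the difference; the vertical axes do not start at 0.

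Levels differed widely within each class. Gars was the most abundant synthetase mRNA in neonatal islets at 115 FPKM on average over 20 libraries, followed by Kars at 42.5, Nars (asparaginyl) at 41.6 and Eprs at 38.1 FPKM, and the last 3 had overlapping library ranges. Farsa was the least abundant cytosolic gene, at 8.64 FPKM. Among mitochondrial genes, Rars2 (arginyl, 18.7 FPKM), Fars2 (phenylalanyl, 14.1 FPKM) and Iars2 (isoleucyl, 13.8 FPKM) were highest, and Pars2 (prolyl, 1.81 FPKM) and Mars2 (methionyl, 2.27 FPKM) were lowest. The classes were not separate: Rars2 exceeded Cars (cysteinyl), whose neonatal mean was 11.4 FPKM.

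The first comparison asked which synthetase mRNAs differ between neonatal and adult islets, over all 26 libraries with batch as a term in a limma model fitted to all 13402 genes that passed the filter. A gene was called when its Benjamini-Hochberg adjusted p over those genes was under 0.05. Of the 20 cytosolic genes 11 were lower in neonatal than in adult islets, 4 were higher and 5 were not called. Of the mitochondrial genes 7 were higher, 2 were lower and 8 were not called. Over all genes tested, 46.8% were called higher in neonatal islets and 21.1% lower, so 11 of 20 is above the background share for lower genes and 7 of 17 is close to that for higher genes. The median difference was -0.22 over the cytosolic genes and 0.08 over the mitochondrial genes, beside 0.16 over all genes tested.

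The largest differences among the cytosolic genes were those of Cars, Aars (alanyl), Nars, Sars (seryl) and Yars (tyrosyl). Cars lies on chromosome 7 (mm10, chr7:143557230-143600090, minus strand, GENCODE M21). Its FPKM in small islets had a lowest value of 8.44, a median of 11.2 and a highest value of 15.7, and in large islets 9.72, 11.1 and 13.3. Adult batch 2 libraries had 29.0, 32.9, 32.7 and 38.4 FPKM, and adult batch 3 libraries 16.4 and 24.4 FPKM. Every adult library was above every neonatal one, and the batches of adults did not overlap. The fitted difference was -1.32 on the log2(FPKM + 1) scale (SE 0.10, limma adjusted p = 5.03e-12), a 2.49-fold higher level in adults.

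Aars (chr8:111033144-111057664, plus strand) ranged from 31.6 to 44.5 FPKM in small islets with a median of 36.1, and from 26.4 to 37.0 FPKM in large islets with a median of 32.7. In adult batch 2 it stood at 101, 98.6, 88.8 and 97.6 FPKM, and in adult batch 3 at 44.1 and 52.7 FPKM. The batch 2 adults were far above all other libraries, and 1 of the 2 batch 3 adults fell inside the neonatal range. The difference was -1.15 (SE 0.11, limma adjusted p = 1.37e-09), or 2.22-fold. Aars shares 1326 exon bases with Exosc6 on the same strand, so how the reads of those bases were assigned is uncertain.

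Nars had a lowest, median and highest value of 35.5, 42.1 and 48.3 FPKM in small islets and of 37.6, 39.1 and 49.9 FPKM in large islets. Adult batch 2 libraries gave 96.0, 99.4, 91.0 and 92.8 FPKM and adult batch 3 libraries 63.2 and 63.8 FPKM. Neonatal, batch 3 adult and batch 2 adult libraries formed 3 ranges that did not overlap. The difference was -0.94 (SE 0.06, limma adjusted p = 1.2e-12).

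Sars (chr3:108424865-108445209, minus strand) ran from 22.1 to 27.8 FPKM in small islets and from 22.1 to 28.8 FPKM in large islets, with medians of 24.5 and 23.2. The adults of batch 2 had 48.3, 48.1, 46.0 and 48.6 FPKM and those of batch 3 had 31.8 and 36.6 FPKM. Yars (chr4:129189760-129219607, plus strand) ran from 19.0 to 22.6 FPKM in small islets and from 18.8 to 22.1 FPKM in large islets, with medians of 20.9 and 20.2. In both genes every adult library exceeded every neonatal one. Yars in adult batch 2 stood at 41.9, 45.2, 40.7 and 42.6 FPKM, and in adult batch 3 at 24.96 and 29.2 FPKM. The differences were -0.81 for Sars (SE 0.07, limma adjusted p = 4.48e-10) and -0.80 for Yars (SE 0.08, limma adjusted p = 6.67e-10). In the authors' deposited table, whose log2 fold changes are on another scale, these 5 genes were the synthetases marked as lower, with log2 fold changes from -1.66 (Cars) to -1.09 (Sars and Yars). The genes marked lower in the authors' deposited table make up 5.78% of its genes, and the log2 fold change nearest to 0 among them is -1.0007. By its FDR alone, under 0.05, 23 of the 37 synthetases were lower and 5 were higher in the authors' deposited table. The share of all genes at that FDR was not computed, so these 2 counts have no background beside them. The 5.78% is the share of marked genes and cannot serve as one.

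The other 6 cytosolic genes called lower ranged from -0.71 (Mars, methionyl) to -0.21 (Wars, tryptophanyl), with Iars, Eprs, Tars (threonyl) and Lars (leucyl) between them. Wars is known in human cells as an interferon-induced gene. Its limma adjusted p of 0.0189 rose to 0.0572 without adult replicate 1 and to 0.0810 without adult replicate 5. Wars was not called within batch 2 or within batch 3 (limma adjusted p = 0.0928 and 0.259). In the fit of all libraries 8 of 12 interferon response genes were called lower in neonatal islets, beside 21.1% of all genes. Their relation to the Wars difference was not tested. Mars shares 68 exon bases with Ddit3, on the opposite strand, and whether strand was used in counting is not given in the sources used here. Ddit3 differed far more than Mars between the adult batches, with 247 to 294 FPKM in batch 2 and 14.9 to 18.6 FPKM in batch 3, whereas Mars had 23.3 to 26.7 and 24.9 to 27.3 FPKM.

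The 4 cytosolic genes higher in neonatal islets were Vars (valyl, 0.60), Qars (glutaminyl, 0.31), Farsa (0.22) and Kars (0.22). Vars ran from 18.6 to 28.2 FPKM in neonatal libraries, stood at 12.7, 13.7, 12.1 and 12.1 FPKM in adult batch 2 and at 17.0 and 15.9 FPKM in adult batch 3. Vars and Qars were the cytosolic genes with all neonatal libraries above all adult ones, which 20.2% of all genes tested also had. Under median-of-ratios rescaling, which moved the median difference of all genes from 0.16 to -0.02, Farsa and Kars lost their calls, and under quantile normalization Farsa did.

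Gars, the shared glycyl enzyme, ran from 97.1 to 133 FPKM in small and from 99.2 to 131 FPKM in large islets, with medians of 109.6 and 116. Adult batch 2 libraries had 117, 115, 103 and 112 FPKM and adult batch 3 libraries 125 and 116 FPKM. The groups overlapped throughout. Its difference was 0.07 (SE 0.06, limma adjusted p = 0.27), and the sign turned under 3 alternative settings. Kars, the shared lysyl enzyme, ran from 37.7 to 50.2 FPKM in neonatal libraries, from 33.9 to 39.9 in adult batch 2, and stood at 41.4 and 37.5 FPKM in adult batch 3. The groups overlapped here too, with a fitted difference of 0.22 (SE 0.05, limma adjusted p = 0.00061).

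**Figure D2:**
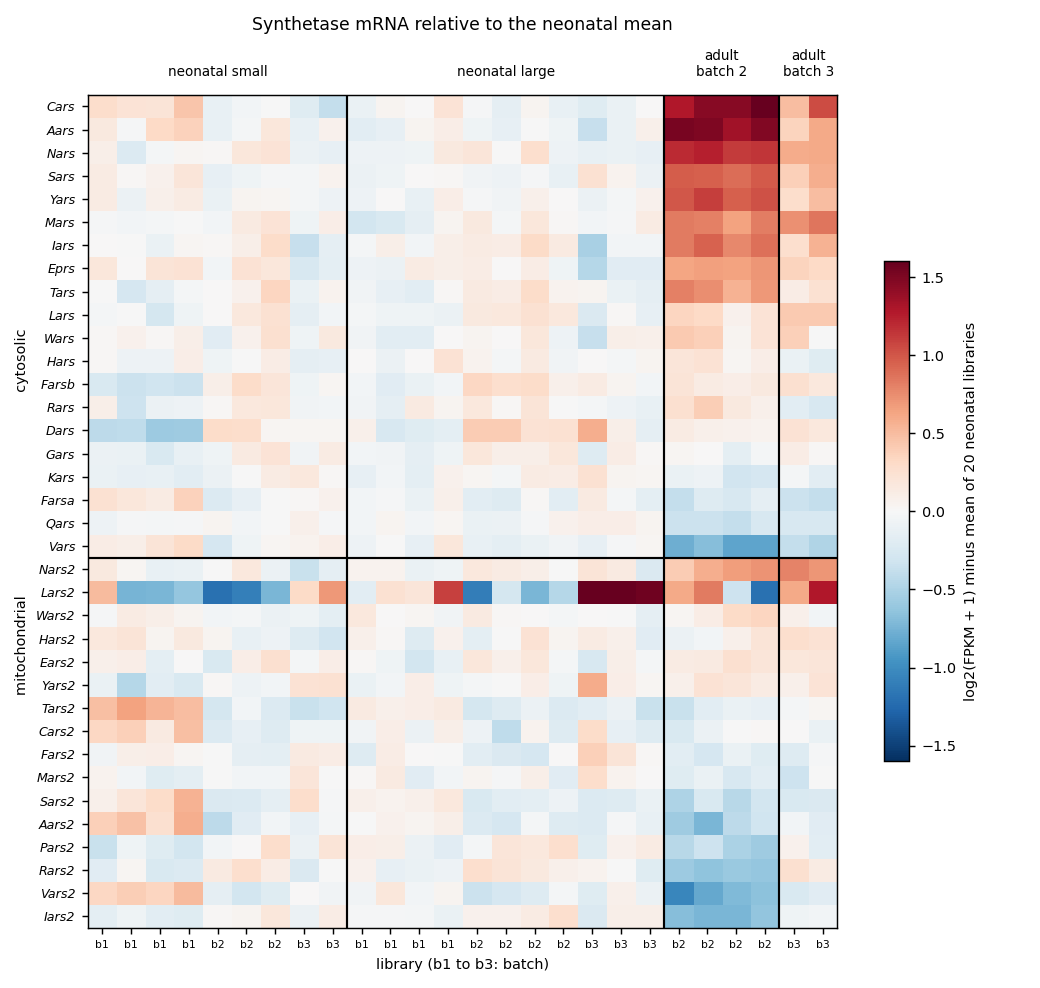
Each cell is log2(FPKM + 1) of 1 synthetase gene in 1 library minus its mean over 20 neonatal libraries (colours end at -1.6 and 1.6); the rows are 20 cytosolic genes above the line and 16 mitochondrial genes below it, ordered by the neonatal versus adult difference, and the columns are libraries by group and batch. The cytosolic genes at the top are high in adult batch 2 and several mitochondrial genes at the bottom are low there, while Lars2 varies from library to library.

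Among mitochondrial genes, Nars2, Iars2, Vars2, Rars2 and Pars2 had the largest called differences. Nars2 was the exception in direction: the gene (chr7:96951505-97064758, plus strand) had a lowest, median and highest value of 2.88, 3.67 and 4.57 FPKM in small islets and of 3.24, 4.16 and 4.74 FPKM in large islets. Adults had 5.56, 6.42, 6.93 and 7.16 FPKM in batch 2 and 7.603 and 7.11 FPKM in batch 3. All adults exceeded all neonates, with a difference of -0.64 (SE 0.08, limma adjusted p = 4.23e-08). It was the one mitochondrial gene whose neonatal and adult libraries did not overlap. Over all genes tested, 5.21% had every neonatal library below every adult one and 20.2% had every one above.

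Iars2 (chr1:185284726-185329396, minus strand) ran from 11.9 to 15.7 FPKM in small islets with a median of 13.0 and from 11.6 to 16.7 FPKM in large islets with a median of 14.5. The adult libraries of batch 2 had 8.14, 7.90, 7.89 and 8.51 FPKM, and those of batch 3 had 13.1 and 13.3 FPKM. Batch 3 adults lay within the neonatal range and batch 2 adults below it. The difference was 0.53 (SE 0.09, limma adjusted p = 8.58e-06). Iars2 shares 2034 exon bases with Rab3gap2 on the opposite strand, and reads there cannot be told apart without strand.

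Rars2 (chr4:34614957-34660167, plus strand) followed the same pattern. It ran from 15.6 to 22.7 FPKM in small islets with a median of 18.5 and from 16.2 to 22.6 FPKM in large islets with a median of 19.4. Adult batch 2 stood at 12.1, 11.5, 12.0 and 11.8 FPKM and adult batch 3 at 22.5 and 20.6 FPKM. Its difference over both batches was 0.40 (SE 0.11, limma adjusted p = 0.00323), and it lost the call under both rescalings.

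Vars2 (chr17:35655634-35667592, minus strand) ran from 4.55 to 8.59 FPKM in small and from 4.35 to 6.72 FPKM in large islets, with medians of 5.82 and 5.55. Adult batch 2 had 2.30, 2.86, 3.17 and 3.30 FPKM and adult batch 3 had 4.72 and 4.99 FPKM. Pars2 (chr4:106651069-106655282, plus strand) ran from 1.18 to 2.40 FPKM in neonatal libraries, with 1.05, 1.22, 0.961 and 0.886 FPKM in adult batch 2 and 1.93 and 1.49 FPKM in adult batch 3. In both genes the batch 3 adults lay inside the neonatal range. The differences were 0.45 for Vars2 (SE 0.08, limma adjusted p = 2.42e-05) and 0.39 for Pars2 (SE 0.09, limma adjusted p = 0.000463). Under quantile normalization Vars2 lost its call (0.15, limma adjusted p = 0.0778) and the sign of Pars2 turned (-0.010).

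The direction of the mitochondrial calls rested on the scale. As deposited 7 were higher and 2 lower in neonatal islets, under median-of-ratios rescaling 3 were higher and 8 lower, and under quantile normalization 1 was higher and 11 lower. Relative to the median of all genes, the deposited differences were 0.37 for Iars2, 0.29 for Vars2, 0.24 for Rars2 and 0.24 for Pars2. The cytosolic genes called lower numbered 14 and 13 under these rescalings. The shares of all genes called higher and lower were not computed under the rescalings, and those of the deposited scale do not apply there. The rescaled counts of both classes therefore have no background beside them.

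Marker genes of islet cell types moved with age in the same libraries. Of the 6 beta cell genes, 4 were called lower in neonatal islets and 2 were not called, beside 21.1% of all genes called lower. The median difference of these 6 genes was -0.49. The 6 endothelial markers summed to between 321 and 509.7 FPKM in neonatal libraries and between 123 and 156 FPKM in adult ones. All 6 were called higher in neonatal islets, beside 46.8% of all genes. The 7 mesenchymal markers summed to between 102 and 861 FPKM in neonatal libraries and between 28.7 and 77.1 FPKM in adult ones. Of these 7, 6 were called higher, beside the same share of all genes. The 4 proliferation genes summed to between 82.7 and 145 FPKM in neonatal and between 3.18 and 8.06 FPKM in adult libraries. The part of any of these marker genes in the synthetase differences was not tested.

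**Figure D3:**
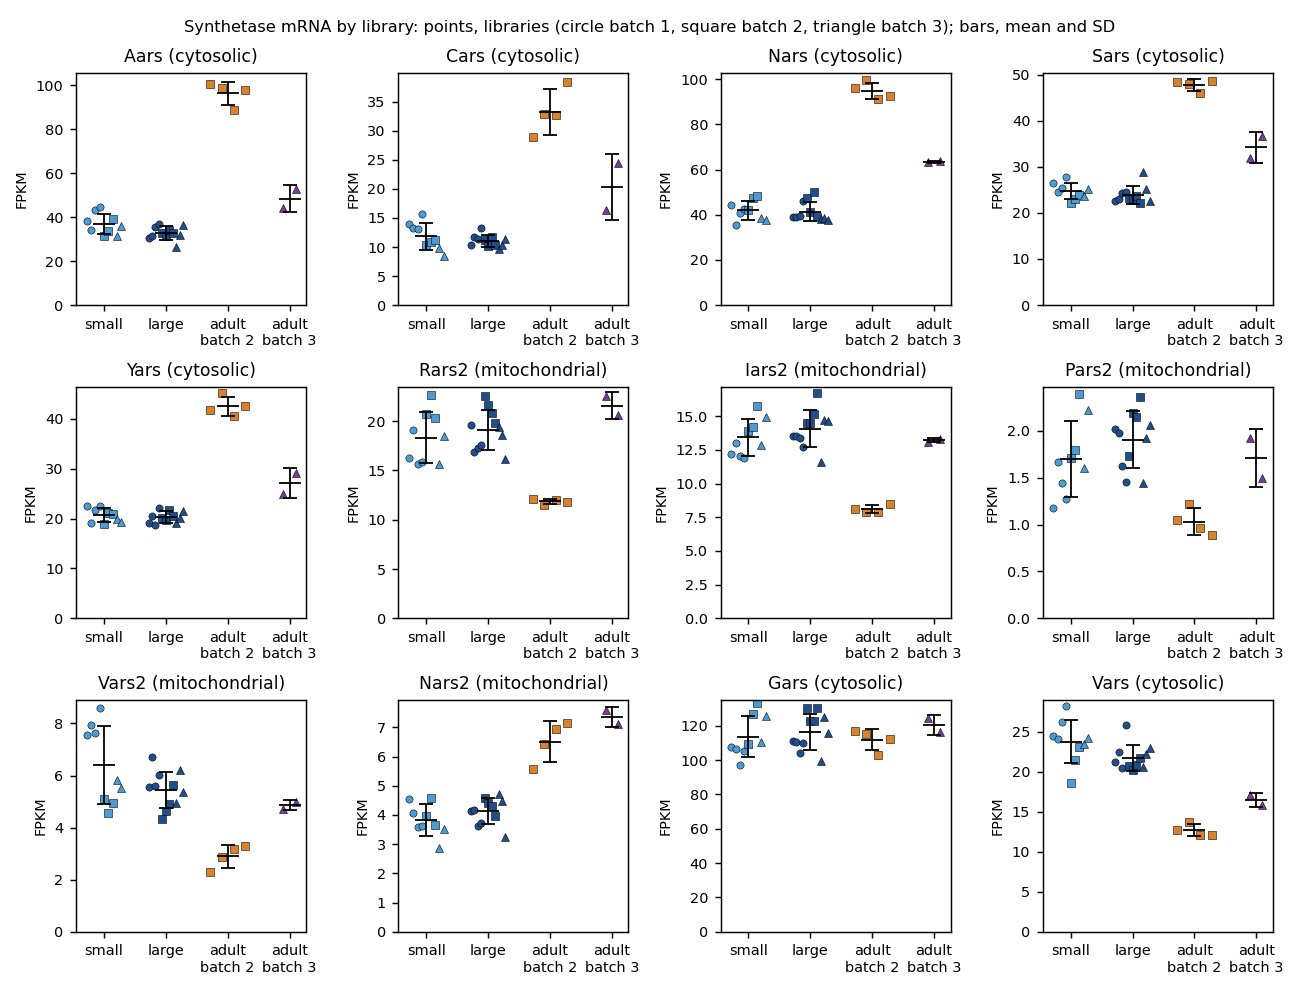
FPKM of 12 synthetase genes by group; points are libraries (circle batch 1, square batch 2, triangle batch 3) and bars are mean and SD, with vertical axes from 0. Aars stands at 88.8 to 101 FPKM in adult batch 2 against 44.1 and 52.7 FPKM in adult batch 3, and Rars2 and Iars2 are lowest in adult batch 2.

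The comparison within each batch asked whether the age difference was the same in batch 2 and batch 3, the batches that hold both ages. In batch 2, 9 cytosolic genes were lower and 3 higher in neonatal islets, and 7 mitochondrial genes were higher and 3 lower, beside 48.2% of all genes called higher and 20.0% lower. In batch 3, 10 cytosolic genes were lower and 3 higher, and 2 mitochondrial genes were higher and 5 lower, beside 42.1% and 24.6% of all genes. Lower in both batches were 8 cytosolic genes (Aars, Cars, Eprs, Iars, Mars, Nars, Sars and Yars), and Qars and Vars were higher in both. Nars2 was the one mitochondrial gene called in the same direction in both batches, and Rars2 was called in opposite directions. The share of all genes called the same way in both batches was not computed, so these joint counts have no background beside them. The batch 3 call for Rars2 was lost without adult replicate 5 (limma adjusted p = 0.0977).

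The library ranges were also read without a model, with the neonatal libraries of all 3 batches set against each adult batch. Over all genes tested, 10.7% had every neonatal library below every adult batch 2 library and 29.5% had every one above. Of the 20 cytosolic genes 9 were below and 2 above, and 1 of 17 mitochondrial genes was below and 3 were above. Against adult batch 3 the shares of all genes were 13.7% below and 29.3% above, with 7 cytosolic genes below and 3 above and 3 mitochondrial genes below and 0 above. With neonatal libraries of the same batch alone the counts differed. In batch 2, 9 cytosolic genes were below and 2 above and 1 mitochondrial gene was below and 5 above, beside 17.3% and 44.2% of all genes. In batch 3 the cytosolic counts were 11 and 5 and the mitochondrial ones 6 and 3, beside 25.2% and 41.8%.

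The difference between the batches was tested directly, as the neonatal minus adult difference in batch 2 minus that in batch 3. Of all genes tested, 24.9% were called with a positive value and 18.3% with a negative one. Of the cytosolic genes 6 had a negative value, meaning that they were lower in neonatal islets by more in batch 2, and 2 a positive one. Of the mitochondrial genes 5 had a positive value and 0 a negative one (limma; 0 were negative at an unadjusted p under 0.05, and voom on recovered fragment counts also called 0). Among the largest values were those of Rars2, Aars, Iars2 and Yars.

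Rars2 was higher in neonatal islets by 0.79 (SE 0.06) in batch 2 and lower by 0.28 (-0.28, SE 0.08) in batch 3. The difference of the 2 was 1.07 (SE 0.10, limma adjusted p = 1.17e-06). Aars was lower in neonatal islets in both batches, at -1.49 (SE 0.08) and -0.55 (SE 0.11), which differed by -0.93 (SE 0.14, limma adjusted p = 7.93e-05). The fitted values of the first gene had opposite signs in the batches, and those of the second differed in size.

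Iars2 differed by 0.80 (SE 0.07) in batch 2 and by 0.05 (SE 0.09) in batch 3, and the difference between them was 0.75 (SE 0.12, limma adjusted p = 9.83e-05). Yars differed by -1.02 (SE 0.06) and -0.42 (SE 0.08), and the difference between them was -0.60 (SE 0.09, limma adjusted p = 0.000114). The other called genes given here ranged from -0.58 (Sars) to -0.32 (Tars) and from 0.27 (Farsb) to 0.50 (Pars2). Without adult replicate 5 of batch 3, 3 cytosolic genes rather than 6 had a negative call, and that fit rests on 1 adult library in batch 3. Under quantile normalization 4 cytosolic genes had a negative call and 3 mitochondrial genes a positive one.

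**Figure D4:**
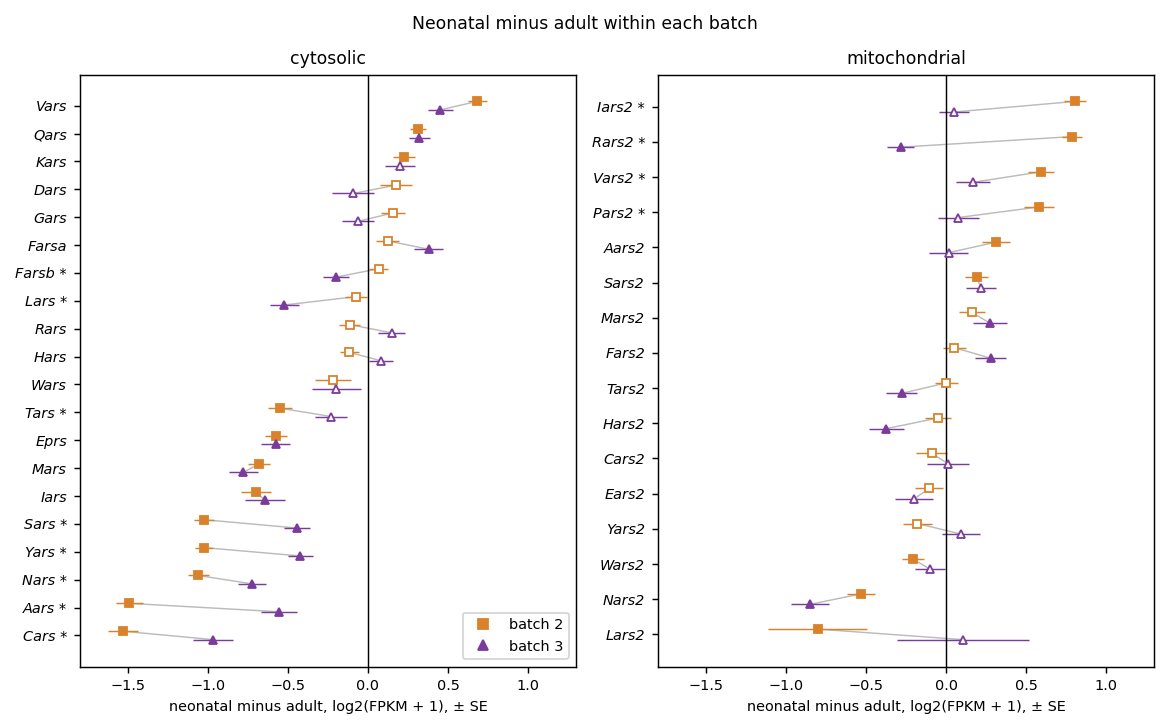
Neonatal minus adult difference in log2(FPKM + 1) with its SE for 20 cytosolic and 16 mitochondrial synthetase genes, in batch 2 (squares) and batch 3 (triangles); filled symbols have a limma adjusted p under 0.05 and a star marks genes whose difference between the batches was called. Cytosolic genes at the bottom left are negative in both batches, and the values of Rars2 lie on opposite sides of 0.

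The adults themselves differed between the batches. Of the cytosolic genes 10 were higher and 1 was lower in adult batch 2 than in adult batch 3, and 0 mitochondrial genes were higher and 6 were lower, beside 16.3% of all genes called higher and 26.8% lower (limma; 0 mitochondrial genes were higher at an unadjusted p under 0.05, and voom also called 0). Aars was higher by 0.98 (SE 0.12, limma adjusted p = 7.45e-06), and Rars2 was lower by 0.81 (log2 difference -0.81, SE 0.09, limma adjusted p = 2.43e-06). Yars was higher by 0.64 (SE 0.08, limma adjusted p = 1.17e-05). The neonatal libraries of batches 2 and 3 differed in 11 synthetase genes, 8 higher and 3 lower in batch 2, beside 35.7% of all genes called in either direction. By class, 7 cytosolic genes were called, all higher in batch 2, and of the mitochondrial genes 1 was higher and 3 were lower. Iars (0.39) and Eprs (0.32) were among the cytosolic genes called, and their adult values were 0.44 and 0.32. Rars2 was higher in neonatal batch 2 (0.26), against its direction in the adults. Aars (0.05) and Yars (0.03) were not called between the neonatal libraries.

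Heat shock and immediate early genes separated the adult batches in the same libraries. The 5 heat shock genes summed to between 1598 and 2190.3 FPKM in adult batch 2, between 345 and 363 FPKM in adult batch 3 and between 374 and 737 FPKM in neonatal libraries. The 7 immediate early genes summed to between 1730.4 and 3308 FPKM in adult batch 2, between 111 and 122 FPKM in adult batch 3 and between 1695 and 5038 FPKM in neonatal libraries. All 5 heat shock and all 7 immediate early genes were called higher in adult batch 2, beside 16.3% of all genes. The 8 acinar genes did not separate the adult batches, and summed to between 19.8 and 3644 FPKM in adult batch 2 and to 119 and 243 FPKM in adult batch 3. The part of any of these in the synthetase differences was not tested, and a difference between the batches and a difference between the adult islets used in them cannot be told apart.

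Genes of the amino acid response, which ATF4 is known to induce, were read beside the synthetases. In the table were 24 of 26 listed genes. Within batch 2, 23 of the 24 were called lower in neonatal than in adult islets, beside 20.0% of all genes. Their median difference was -1.04 beside 0.19 over all genes. Within batch 3, 10 were called lower and 8 higher, beside 24.6% and 42.1% of all genes. The median there was 0.25 beside 0.15, so the calls and the median differed in sign. The difference between the batches was called for 20 of 24, all negative, beside 18.3% of all genes. In adult batch 2, 21 of 24 were called higher than in adult batch 3, beside 16.3% of all genes.

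Atf4 itself had 372 to 385 FPKM in adult batch 2, 103 and 141 FPKM in adult batch 3 and 141 to 257 FPKM in neonatal libraries. Trib3, an ATF4 target that restrains the response, was lower in neonatal islets by 4.47 in batch 2 (log2 difference -4.47, SE 0.17, limma adjusted p = 4.82e-12), and Chac1, which degrades glutathione, by 4.65 (-4.65, SE 0.29, limma adjusted p = 1.61e-09). Asns (asparagine synthetase, which is not a tRNA synthetase) ran from 19.5 to 32.2 FPKM in neonatal islets, from 83.6 to 100.3 in adult batch 2 and stood at 49.3 and 62.8 FPKM in adult batch 3. In Asns, as in Nars and Sars, the batch 3 adults lay between the neonatal and the batch 2 adult libraries, and in Atf4 they did not. Whether ATF4 had a part in the synthetase differences was not tested. The list's summed level was 1603 to 1725 FPKM in adult batch 2, 523 and 623 FPKM in adult batch 3 and 540.4 to 830.2 FPKM in neonatal libraries. Of 18 endoplasmic reticulum chaperone and quality control genes, 12 were called higher in adult batch 2 than in adult batch 3, beside 16.3% of all genes. Under quantile normalization 7 were higher and 1 was lower. The neonatal libraries leaned the same way: 8 of the 18 were called between batches 2 and 3, all higher in batch 2. Beside them, 35.7% of all genes were called in either direction. In the test between batches 6 of the 18 were negative and 1 was positive, beside 18.3% and 24.9% of all genes.

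The promoter windows of the synthetases were searched for the letters TGATGNAA on both strands, the C/EBP-ATF composite element through which ATF4 is known to act. The windows are those of RefSeq (GRCm38.p6, the sequence of mm10), 250 bases before to 50 bases after each gene start, and 27 of the 37 genes had one (13 cytosolic and 14 mitochondrial). The motif was held by 5 cytosolic genes and 0 mitochondrial genes, beside 2.71% of the genes tested that have a window (281 of 10359) and 3.97% of all 32851 windows. The stretches are shown because these genes can be set beside their levels; each has 28 bases, 5′ to 3′ on the gene's strand, with the motif or its reverse complement in capitals.
Aars, 10 bases into the transcript (chr8:111033841-111033868, plus): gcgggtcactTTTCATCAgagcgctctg
Gars, 30 bases before the start (chr6:55037961-55037988, plus): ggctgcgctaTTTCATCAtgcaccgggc
Iars, 8 bases into the transcript (chr13:49682127-49682154, plus): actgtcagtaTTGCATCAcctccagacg
Tars, 15 bases before the start (chr15:11399656-11399683, minus): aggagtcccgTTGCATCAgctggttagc
Yars, 4 bases into the transcript (chr4:129189896-129189923, plus): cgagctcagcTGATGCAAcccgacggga
Distances are to the motif's first base. Aars, Iars, Tars and Yars were lower in neonatal islets, and Gars, with 1 motif, was not called. Sars, Mars and Eprs were also lower and their windows hold no match to these letters. Of 23 amino acid response genes with a window, 7 held the motif. A match describes letters and not a bound site.

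Ratios within a library do not change when all its values are multiplied by the same factor, as in median-of-ratios rescaling. Quantile normalization can change them, and they were computed from the deposited FPKM alone. The 14 amino acids with a cytosolic and a mitochondrial gene of the same letter were read as pairs. In 8 of 14 pairs every adult batch 2 library had a higher cytosolic to mitochondrial FPKM ratio than every neonatal library, and the pairs that did so were those for alanine, cysteine, isoleucine, methionine, arginine, serine, threonine and tyrosine. Against adult batch 3, 4 pairs were higher in both adult libraries (cysteine, isoleucine, methionine and serine) and 2 were lower (histidine and arginine). No pair was lower in adult batch 2 (0 of 14). Ranges that do not overlap were common among single genes too: 10.7% of all genes were higher and 29.5% lower in all adult batch 2 than in all neonatal libraries, and 13.7% and 29.3% in adult batch 3. No such share was computed for ratios of other genes. Hars and Hars2 share 195 exon bases on opposite strands, so reads there cannot be told apart without strand and the histidine ratio is uncertain.

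Aars to Aars2 had a lowest, median and highest ratio of 7.22, 11.2 and 15.3 in neonatal libraries, 42.6, 49.8 and 66.8 in adult batch 2, and 14.8 and 20.2 in adult batch 3. Iars to Iars2 went from 1.10 to 1.61 in neonatal libraries, from 4.12 to 4.66 in adult batch 2 and from 1.74 to 2.10 in adult batch 3. Rars to Rars2 turned the other way in 1 batch, with 1.27 to 2.01 in neonatal libraries, 2.75 to 3.52 in adult batch 2 and 1.204 to 1.234 in adult batch 3. Mars to Mars2 ran over overlapping ranges in the adult batches, 13.0 to 14.5 and 12.2 to 15.6, against 4.69 to 7.92 in neonatal libraries. The ratio was higher in all adult batch 2 than in all adult batch 3 libraries for 11 of 14 pairs, beside 24.7% of single genes higher and 43.6% lower in all adult batch 2 libraries.

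**Figure D5:**
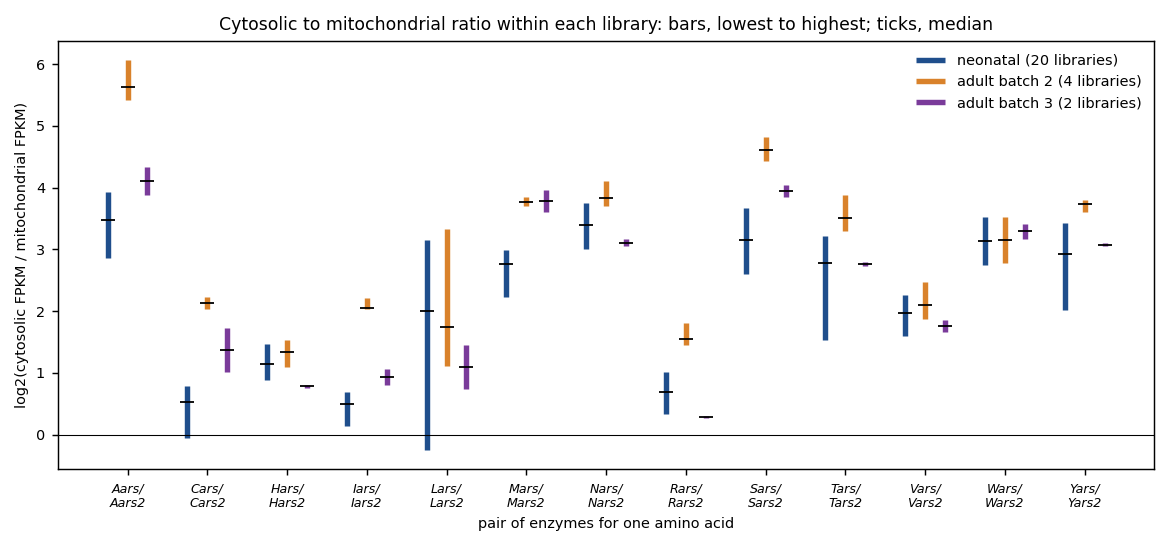
Log2 ratio of cytosolic to mitochondrial FPKM within each library for 13 pairs of genes for the same amino acid; bars run from the lowest to the highest library and ticks mark the median, for 20 neonatal, 4 adult batch 2 and 2 adult batch 3 libraries. Adult batch 2 lies wholly above the neonatal bar in 8 of these 13 pairs, and Lars to Lars2 has the widest neonatal bar.

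The complex and the partners of the mitochondrial enzymes gave further context. Of 8 enzymes of the multi-synthetase complex, 4 were lower and 2 higher in neonatal islets, and of the 12 other cytosolic genes 7 were lower and 2 higher, beside 21.1% of all genes lower and 46.8% higher. The 3 scaffold genes were all higher in neonatal islets, led by Aimp2 at 0.85 (SE 0.10, limma adjusted p = 3.48e-08), but 2 kept the call under median-of-ratios rescaling and 1 under quantile normalization. Of 12 genes for mitochondrial tRNA modification and delivery, 7 were higher and 2 lower, against the same shares of all genes. Tufm, the mitochondrial elongation factor that carries charged tRNA to the ribosome, was higher by 0.61 (SE 0.06, limma adjusted p = 1.74e-09), while the list stood at 4 higher and 3 lower under median-of-ratios rescaling and at 3 and 3 under quantile normalization. In the test between batches 5 of these 12 were called, all positive, beside 24.9% of all genes, led by Mtif2, the initiation factor, at 0.57 (SE 0.15, limma adjusted p = 0.00551).

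Small and large neonatal islets were compared next, within the model of all 26 libraries. The cytosolic gene Dars (aspartyl) and the mitochondrial gene Lars2 (leucyl) were called lower in small islets, and 35 of 37 were not called, beside 17.6% of all genes called in either direction. Dars had a lowest, median and highest value of 16.5, 25.8 and 31.2 FPKM in small and of 21.1, 27.1 and 38.2 FPKM in large islets, and the groups overlapped. Its difference was -0.22 (SE 0.07, limma adjusted p = 0.0348), and the low values were those of batch 1, with 16.5 to 18.8 FPKM in small and 21.1 to 26.7 FPKM in large islets. The Dars call was lost without any 1 of 8 libraries and the Lars2 call without any 1 of 18, and neither held when batch 1 was left out. Small and large libraries of 1 batch can carry the same number in their names, and 6 of 7 such pairs deviated together (correlations of 0.20 to 0.63, and -0.16 in the other). With that number as a replicate block 1 cytosolic gene was higher and 2 were lower in small islets, 2 mitochondrial genes were higher and 1 was lower, and 4205 rather than 2363 of all genes were called. The calls for Dars and Lars2 held with that block.

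Lars2 was the most variable synthetase. In small islets it had 4.91 to 13.1 FPKM in batch 1, 3.35 to 4.99 FPKM in batch 2 and 11.3 and 15.1 FPKM in batch 3, and in large islets 7.85 to 20.3, 3.61 to 7.17 and 28.3 to 30.0 FPKM. The adult libraries had 14.1, 16.7, 6.87 and 3.34 FPKM in batch 2 and 14.1 and 23.2 FPKM in batch 3. The libraries of small, large and adult islets overlapped. Its small minus large difference was -0.70 (SE 0.24, limma adjusted p = 0.0497), and the neonatal difference between batches 2 and 3 was -1.87 (SE 0.29, limma adjusted p = 0.000488).

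A few mitochondrial genes set the small islets of batch 1 apart without passing the test between sizes. Vars2 had 7.55 to 8.59 FPKM there against 5.55 to 6.72 FPKM in the large islets of batch 1, and Tars2 had 5.77 to 6.59 FPKM against 4.12 to 4.38 FPKM. In batch 2 the small and large ranges of both overlapped, at 4.55 to 5.12 and 4.35 to 5.63 FPKM for Vars2 and at 3.00 to 3.72 and 2.99 to 3.56 FPKM for Tars2. In batch 3 they overlapped too. Vars2 had 5.82 and 5.53 FPKM in small and 4.94 to 6.20 FPKM in large islets, and Tars2 had 2.80 and 2.88 against 2.79 to 3.53 FPKM. These genes were picked for their batch 1 values after those were seen. The share of all genes with such separate ranges in batch 1 was not computed. The small libraries of batch 1 were also among the shallowest, with 15529844 to 18346343 fragments, and the part of depth in these values was not tested. The size comparison called 6 of 7 mesenchymal markers lower in small islets, beside 17.6% of all genes called in either direction.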

How the data were processed

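Total RNA of hand-picked islets was sequenced after ribosomal RNA depletion, per the labels' protocols. The submitters' processing notes name mm10, STAR 2.6a, HTSeq 0.11.1 and edgeR; strand use in counting is not given in the sources used here. The deposited table gives FPKM per gene and library (26 libraries, 0 columns unused). It also gives the authors' own neonatal against adult comparison, with a log2 fold change, an F score, p-values and FDR. From that comparison the text uses the log2 fold changes, the marks and counts of genes by FDR. FPKM values were whole multiples of 1 fragment for all 13641 genes (within 0.03 fragment), which gave fragment totals per library. Differences were tested with limma 3.58.1 in R 4.3.3 on log2(FPKM + 1), with moderated variances (trend, robust) and Benjamini-Hochberg adjustment over 13402 genes with an FPKM of 1 or higher in 6 or more libraries; such differences understate changes of low genes. One fit used all 26 libraries with group and batch, and another used batches 2 and 3 with a mean per group and batch. Neonatal against adult means the average of small and large islets. Comparisons that share libraries are given side by side only.

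The fit was tested on simulated data made from these libraries. The alternatives were another pseudocount, median-of-ratios and quantile scaling, other filters, plain moderation, no batch term, batches 2 and 3 alone, replicate blocks and leaving out each library; voom on the recovered fragment counts was added after seeing the data. The members and gene lists were chosen with earlier results of these data known. Genes with full statistics are the 5 cytosolic and 5 mitochondrial genes with the largest called age difference, those with the largest called difference between batches, and Gars and Kars. Vars, Qars, Farsa, Mars, Wars, Dars, Lars2 and Tars2 and the other genes given with values were named after their values were seen. The results of 1 synthetase gene and 1 promoter stretch are not reported here, and that gene is counted in the totals.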

Additional observations from a re-analysis of the deposited data

Results flagged for a closer look

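Of the synthetase genes, 12 are given because their neonatal minus adult difference in batch 2 was not that of batch 3 by the limma test of the difference itself. On the log2(FPKM + 1) scale the batch 2 minus batch 3 value was -0.93 for Aars, -0.60 for Yars, -0.58 for Sars, -0.56 for Cars, -0.34 for Nars and -0.32 for Tars, so neonatal islets were lower by more in batch 2. It was 0.27 for Farsb and 0.45 for Lars among the cytosolic genes. Among the mitochondrial genes it was 1.07 for Rars2, 0.75 for Iars2, 0.50 for Pars2 and 0.42 for Vars2. The call for Nars was lost without adult replicate 5 (limma adjusted p = 0.0786) or 6 (0.0724), and that for Vars2 without adult replicate 6 (0.0909). Those for Cars and Pars2 were lost without adult replicate 5 (0.150 and 0.135), that for Tars without any 1 of 13 libraries and that for Farsb without any 1 of 12. Under quantile normalization the calls for Nars (-0.18, limma adjusted p = 0.209), Tars (-0.22, 0.159), Vars2 (0.29, 0.0590) and Pars2 (0.41, 0.0759) were lost, and under median-of-ratios rescaling that for Farsb (0.21, 0.135). Tars also lost its call with plain moderation (0.0543) and with voom (0.0553). Batch 3 holds 2 adult libraries, and the test cannot tell a difference between batches from a difference between those adults and the 4 of batch 2.

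Single libraries stood away from the rest of their group in 2 of 74 checks (37 genes in the 9 small-islet libraries and in the 4 adult batch 2 libraries); chance alone picks out about 1 in 20 such groups. Mars stood at 23.3 FPKM in adult replicate 3, below the other batch 2 adults at 26.3 to 26.7 FPKM. Tars stood at 29.5 FPKM in neonatal small replicate 9, above the other small-islet libraries at 19.0 to 24.2 FPKM.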

How the results depend on the processing

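Values are neonatal minus adult, or small minus large, unless stated, and the cause of the changes was not tested except where fewer genes or samples are named. Shares of all genes called in each direction were not computed under these settings, so the counts have no background beside them. For neonatal against adult islets, median-of-ratios rescaling gave 2 cytosolic genes higher, 3 mitochondrial higher and 8 lower, and quantile normalization 1 mitochondrial higher and 11 lower; a filter at FPKM 5 gave 3 and 1. The sign turned under median-of-ratios rescaling for Gars (-0.13), Dars (-0.13) and Fars2 (-0.056). It turned under quantile normalization for Pars2 (-0.010), Gars (-0.064), Dars (-0.030), Fars2 (-0.0012), Mars2 (-0.17), Aars2 (-0.14) and Sars2 (-0.16), and with no batch term for Tars2 (0.14), Cars2 (0.080), Gars (-0.0011) and Dars (-0.14). For small against large islets, cytosolic genes lower numbered 0 under median-of-ratios rescaling, with no batch term and in batches 2 and 3 alone (1, 1 and 0 at an unadjusted p under 0.05, limma). Mitochondrial genes higher numbered 4 under quantile normalization, and mitochondrial genes lower numbered 0 with pseudocount 0.1, median-of-ratios rescaling, the filter at FPKM 5, voom, no batch term and batches 2 and 3 alone (limma; 0 or 1 at an unadjusted p under 0.05). Within batch 2, median-of-ratios rescaling gave 1 cytosolic gene higher and 9 mitochondrial lower and turned Gars (-0.071); quantile normalization gave 3 mitochondrial higher and 10 lower; the filter at FPKM 5 gave 3 mitochondrial higher. Within batch 3, mitochondrial genes higher numbered 0 under both rescalings (limma; 0 at an unadjusted p under 0.05) and 1 with voom or the filter at FPKM 5, which gave 3 lower. Iars2 (-0.11 and -0.10) and Pars2 (-0.031 and -0.27) turned under median-of-ratios and quantile scaling, and Vars2 (-0.054) under quantile. For the difference between batches, median-of-ratios rescaling gave 1 cytosolic positive, and quantile normalization or the filter at FPKM 5 gave 3 mitochondrial positive. For adult batch 2 against 3, quantile normalization gave 3 cytosolic lower and 1 mitochondrial higher, and the filter at FPKM 5 gave 3 mitochondrial lower. With pseudocount 0.1 the cytosolic minus mitochondrial median was 2.54 in small, 2.50 in large, 3.24 in adult batch 2 and 2.50 in adult batch 3.

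A replicate block by title number left the age counts at 4 and 11 cytosolic and 7 and 2 mitochondrial and gave 0 mitochondrial genes lower in small islets; a block by the number in the library names gave 1 cytosolic higher, 2 lower and 2 mitochondrial higher there, and 4205 rather than 2363 genes called. Same-numbered libraries share only a number: 6 of 7 pairs by library name correlated above 0.1 and 1 did not (-0.16). Leaving out each library in turn, the ranges were -0.057 to 0.0050 for Farsb and -0.064 to 0.022 for Rars by age, -0.00032 to 0.10 for Iars2 and -0.040 to 0.19 for Pars2 within batch 3, 0 to 2 cytosolic and 0 to 1 mitochondrial lower in small islets, 3 to 5 cytosolic higher in batch 2, and 0 to 3 mitochondrial higher and 2 to 5 lower in batch 3. For the difference between batches they were 1 to 3 cytosolic positive, 3 to 7 negative and 0 to 1 mitochondrial negative, and for neonatal batch 2 against 3 they were 4 to 8 cytosolic higher and 0 to 2 lower. Without adult replicate 5, the batch 3 call for Rars2 (limma adjusted p = 0.0977) and the age call for Mars2 (0.0509) were lost, and Aars2 lost its age call without adult replicate 1 or 2 (up to 0.0906); without adult replicate 5 or 6, batch 3 has 1 adult library, assumed to vary like the others.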
